A study of Danio rerio with 20 samples.

Results

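Nuclear receptors are transcription factors that bind DNA as single units or pairs and change the transcription of nearby genes, many of them when a small fat-soluble ligand such as a fatty acid, a bile acid, a retinoid or a hormone occupies their ligand pocket. In the liver they are known for the control of fatty acid oxidation, bile acid and cholesterol handling, drug metabolism and the expression of plasma proteins, and many of them act as pairs with a retinoid X receptor. This account covers 40 nuclear receptor genes of the zebrafish (Danio rerio), measured by 58 probes, out of 5356 named genes and 16512 probes on the array. They were chosen by name alone, as every gene with a single platform symbol of the form nr1h4 (nr, a digit, a letter, a digit) and the genes of the peroxisome proliferator-activated, retinoic acid, retinoid X, thyroid hormone, vitamin D, oestrogen (esr2), oestrogen-related, ROR and HNF4 receptors. The oestrogen receptor gene esr1 was left out by the rule, and thrap3b and ppargc1b, whose symbols only begin like a receptor's, are not receptors.

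The study set 10 liver tumors of zebrafish, induced with carcinogens per the labels, against 10 normal zebrafish livers, one array each. The labels do not name the strain, the age, the carcinogen or the kind of tumor. On each array the liver sample was labelled with Cy5 and normal liver RNA, the common reference of all 20 arrays, with Cy3. Groups were read from the array titles, where C was taken as normal and T as tumor. Values are log2 ratios, likely liver sample over reference, and a difference is tumor minus normal in log2 units. All signs below hinge on that direction. The labels do not state that the arrays of a group came from different fish. The p-values therefore rest on the spread among these samples alone, and some of that spread may be technical. Brightness is not in the table, so levels of different genes cannot be ranked, and a value of 0 means equal to the reference, not absent.

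The tissue and the arrays differed between the groups beyond the receptors. Of 9 measured hepatocyte marker genes 7 were lower in tumors and 0 higher, and their summed log2 ratio ran from -2.71 to 2.63 on normal arrays and from -28.7 to -8.24 on tumor arrays. Of 7 bile duct markers 2 were higher (epcam by 1.32 ± 0.33 and notch3 by 0.63 ± 0.18, SE), of 10 ovary markers 2 were higher and 1 lower, of 8 muscle markers 2 were higher and 2 lower, and of 5 erythrocyte and 5 intestine markers 1 each was lower. Of 4 exocrine pancreas and 9 leukocyte markers limma called 0 and the rank-sum test called 0, with 3 and 1 at an unadjusted p under 0.05. With the dim share in the fit as a covariate, 3 hepatocyte, 1 muscle and 1 intestine marker passed and 0 bile duct, erythrocyte or ovary markers (0, 0 and 1 at an unadjusted p under 0.05). At that unadjusted level there were 7 hepatocyte, 3 muscle, 1 intestine, 3 exocrine pancreas and 2 leukocyte markers. Without normal replicate 8 and tumor replicate 10, 7 of the 10 ovary markers passed. The summed log2 ratio of the pancreas markers ran from -13.1 to 10.8 on normal and from -19.7 to 3.61 on tumor arrays. That of the ovary markers ran from -28.2 to 16.9 on normal and from -19.5 to 13.5 on tumor arrays. The share of dim spots, at ratios of small whole numbers, was 5.86% of values on normal and 1.96% on tumor arrays. By array it ran from 2.55% (normal replicate 8) to 7.87% on normal arrays. On tumor arrays it ran from 0.654% to 7.16% (tumor replicate 9), so the groups overlapped. For the 58 receptor probes the share was 3.45% on normal and 0.690% on tumor arrays. The part of any of these in the receptor differences was not tested. Less RNA of a gene per cell and fewer cells that express it cannot be told apart in whole tissue.

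The first question was whether nuclear receptor genes differ between tumor and normal liver. Of the 40 genes 1 passed the adjusted threshold of 0.05 in the limma fit over all 15780 features, pparab, which was lower in tumors. That is 2.5% of the receptor genes, where 10.8% of all features passed (5.91% higher and 4.94% lower in tumors). At an unadjusted p under 0.05 there were 10 receptor genes, or 25%, against 26.1% of all features, with 9 of them lower and raraa higher. Differences ran from -1.16 for nr5a5 to 0.49 for raraa. Differences of at least 1 log2 unit, or 2-fold, were seen in 1 receptor gene, nr5a5, and in 5.16% of all features. The median absolute difference was 0.25 for the receptors and 0.24 for all features, with a median SE of 0.21 and 0.19. For 34 of the 40 genes the 95% interval of the difference stayed within 1 log2 unit on either side of 0, and for 6 it reached a 2-fold change. In none of the 40 did the groups separate, where 0.526% of all features did.

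More receptor genes lay below 0 than above. The difference was negative for 30 of 40 genes (75%) and for 50.9% of all features, with a median of -0.15 against -0.01. The median log2 ratio of the 40 genes was lowest on tumor replicates 10 and 1, at -0.76 and -0.72, while it ran from -0.28 to 0.08 on the other 8 tumors and from -0.31 to 0.14 on the normal arrays, so the groups overlapped. Without those 2 tumors 24 of 40 differences were negative, with a median of -0.07.

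**Figure D1:**
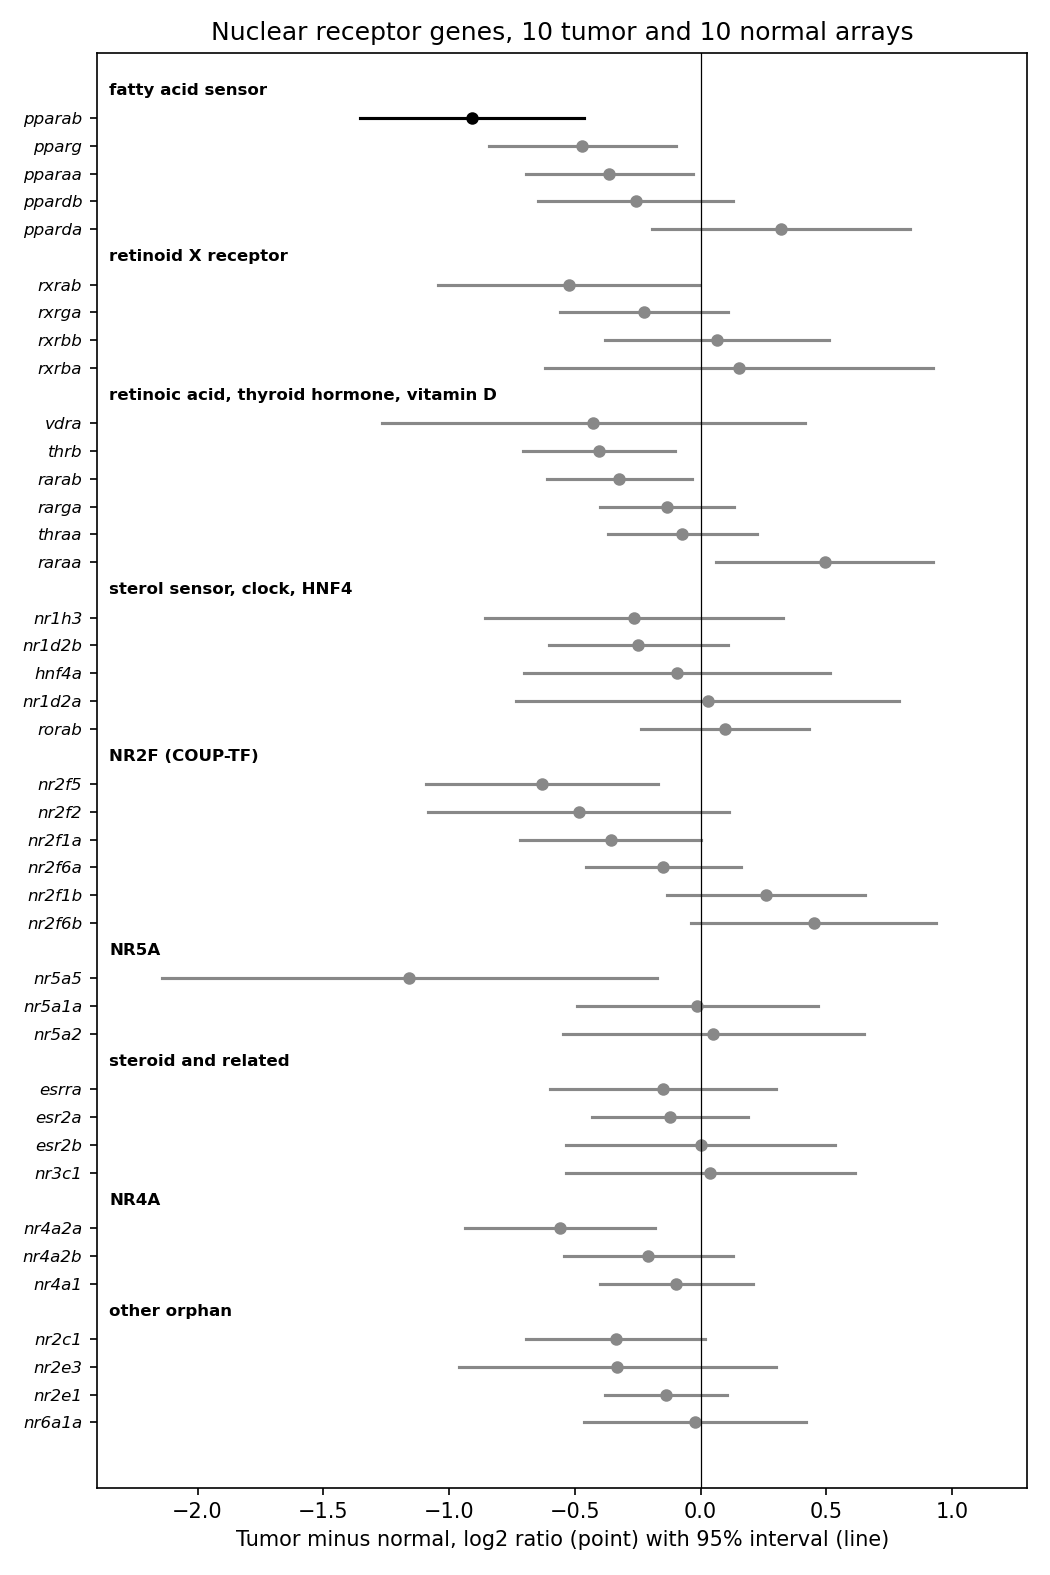
Difference between tumor and normal arrays (log2 ratio, x axis) for each of the 40 nuclear receptor genes, grouped by the kind of receptor. Points are differences and lines their 95% intervals from limma, n = 10 arrays per group. The 1 gene in black, pparab at -0.91, passed the adjusted threshold, and the genes in grey did not.

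The peroxisome proliferator-activated receptors, PPARs, are fatty acid sensors. In mammals the alpha form is known for switching on fatty acid oxidation in the liver, the gamma form for fat storage, and the delta form acts widely. Zebrafish has alpha genes pparaa and pparab and delta genes pparda and ppardb. The gene pparab was measured by 1 probe. On the normal arrays it stood at -0.43 to 1.09 (median 0.27), and on the tumor arrays at -1.33 to 0.22 (median -0.60). All 10 tumors lay below the normal median and 7 of them below every normal array, while 5 normal arrays lay above every tumor, so the groups overlapped in the middle. The difference was -0.91 ± 0.21 (SE), a 1.88-fold lower ratio in tumors (95% interval -1.35 to -0.46, adjusted p = 0.00911 with limma). It passed without each of the 20 arrays in turn, at adjusted p = 0.00445 to 0.0184. When the share of dim spots entered the fit as a covariate it was -0.64 (adjusted p = 0.458), a fit in which 0.342% of all features passed and 0 of the 40 receptor genes (4 of them at an unadjusted p under 0.05).

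The other alpha gene, pparaa, stood at -0.58 to 0.40 on normal arrays (median -0.31) and at -1.47 to -0.22 on tumors (median -0.50). Its difference was -0.36 ± 0.16 (adjusted p = 0.151, limma). The lowest value was that of tumor replicate 1, and 4 tumors lay below every normal array. The gamma gene pparg ranged from -0.43 to 0.76 on normal arrays (median -0.01) and from -0.93 to 0.18 on tumors (median -0.39), with a difference of -0.47 ± 0.18 (95% interval -0.84 to -0.10, adjusted p = 0.0967). The delta genes lay on opposite sides of 0. The gene pparda differed by 0.32 ± 0.25 (adjusted p = 0.43), and 5 tumors lay above every normal array. The gene ppardb differed by -0.26 ± 0.19 (adjusted p = 0.397), the mean of 4 probes that ran from -0.57 to 0.09.

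**Figure D2:**
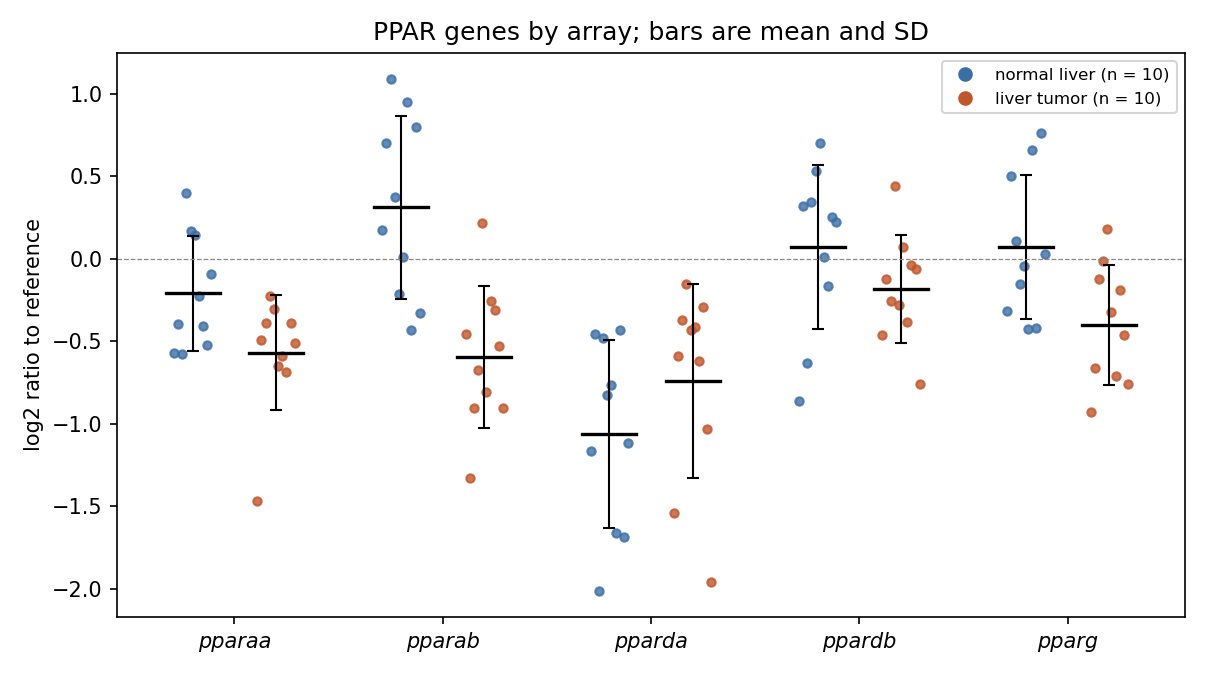
Log2 ratio to the reference (y axis) of the 5 PPAR genes on each array, with normal liver in blue and tumor in orange. Black lines are the mean and SD of 10 arrays, and the dashed line marks a ratio of 1. Most tumors lie below the normal arrays for pparab, the groups overlap for the other 4 genes, and both groups lie below 0 for pparda.

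The retinoid X receptors are the shared partners of PPARs and of the retinoic acid, thyroid hormone, vitamin D and sterol receptors. None of 4 passed. The gene rxrab had the largest difference of them, -0.52 ± 0.25 (95% interval -1.04 to -0.01, adjusted p = 0.185, limma), with -1.02 to 0.27 on normal arrays (median -0.23) and -2.49 to -0.14 on tumors (median -0.59). The lowest value was that of tumor replicate 10. Without it the difference was -0.34 (adjusted p = 0.28), and without tumor replicates 1 and 10 it was -0.21 (adjusted p = 0.45). Across the arrays, 3 tumors lay below every normal array and 3 normal arrays above every tumor. The gene rxrga differed by -0.22 ± 0.16. The beta genes differed by 0.07 ± 0.21 for rxrbb and by 0.15 ± 0.37 for rxrba, whose probes gave 0.37 and -0.06.

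Retinoic acid receptors carry the signal of vitamin A. The alpha genes raraa and rarab had differences of opposite sign, neither past the threshold alone. On normal arrays raraa stood at -1.48 to 0.69 (median -0.47), and on tumors at -0.37 to 0.65 (median -0.03), a difference of 0.49 ± 0.21 (adjusted p = 0.133, limma). All 10 tumors lay above the normal median, 5 normal arrays lay below every tumor, and the highest value of all, 0.69, was that of normal replicate 8. Of the 20 fits that left out 1 array, raraa passed in 1, without normal replicate 8 (0.62, adjusted p = 0.0268). In that fit 12.3% of all features passed, against 10.8% with all arrays. Normal replicate 8 had the lowest dim share of the normal arrays, 2.55%. Without normal replicate 3 the difference of raraa was 0.38 (adjusted p = 0.218). The other gene, rarab, stood at 0.08 to 0.69 on normal arrays (median 0.36) and at -0.25 to 0.91 on tumors (median -0.13). Of the tumors 8 lay below every normal array, while tumor replicate 9 lay above all of them. The difference of rarab was -0.32 ± 0.14 (adjusted p = 0.141). Without tumor replicate 9 it was -0.42 and passed (adjusted p = 0.0137), in a fit where 13.6% of all features passed. Tumor replicate 9 had the highest dim share of the tumor arrays, 7.16%. Without tumor replicate 2 the difference of rarab was -0.30 (adjusted p = 0.215). The gamma gene rarga differed by -0.13 ± 0.13.

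Thyroid hormone receptors set metabolic rate, and the beta form is the main one of the mammalian liver. The beta gene thrb stood at -0.31 to 0.55 on normal arrays (median 0.19) and at -0.89 to 0.20 on tumors (median -0.22). The groups overlapped in part, with 5 normal arrays above every tumor and 3 tumors below every normal array. The difference was -0.40 ± 0.15 (95% interval -0.71 to -0.10, adjusted p = 0.0767, limma). Its probes gave -0.50 and -0.31, and the first passed when the probes were tested one by one (adjusted p = 0.0422). The alpha gene thraa differed by -0.07 ± 0.14, with an interval from -0.37 to 0.22. The vitamin D receptor gene vdra differed by -0.43 ± 0.41, and its interval from -1.27 to 0.41 did not exclude a 2-fold decrease.

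The next genes are sensors of sterols and heme and the main hepatocyte receptor HNF4. The liver X receptor gene nr1h3, a sensor of oxidised cholesterol, differed by -0.27 ± 0.29 (adjusted p = 0.588). Its median was -0.27 on normal arrays and -0.85 on tumors, with 4 tumors below and 1, tumor replicate 4, above every normal array. Without tumor replicate 4 the difference was -0.48 (adjusted p = 0.18). The clock repressors nr1d2a and nr1d2b of the REV-ERB group differed by 0.03 ± 0.37 and -0.25 ± 0.17, and the clock activator rorab by 0.10 ± 0.16. HNF4 alpha, which drives much of the hepatocyte programme in mammals, had a mean of -0.10 ± 0.54 on normal and -0.19 ± 0.82 on tumor arrays (SD, n = 10 each), a difference of -0.09 ± 0.29 (95% interval -0.70 to 0.51, adjusted p = 0.87). The gene hnf4a stood at -2.38 on tumor replicate 10 and between -0.32 and 0.64 on the other 9 tumors, within the normal range of -0.96 to 0.79.

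The NR2F genes, known as COUP-TFs, are orphan receptors that mostly repress, and in development they shape vessels, nerve cells and other tissues. None of 6 passed between tumor and normal. The gene nr2f5, a member of the group in fish, stood at 0.00 to 1.35 on normal arrays (median 0.44) and at -1.12 to 1.10 on tumors (median 0.04). Of the tumors 9 lay below the normal median and 4 below every normal array, and the exception was tumor replicate 9. The difference was -0.63 ± 0.22 (95% interval -1.09 to -0.17, adjusted p = 0.0713, limma). It passed without tumor replicate 9 (-0.76, adjusted p = 0.0126), in a fit where 13.6% of all features passed. The other extreme was nr2f6b, at -0.89 to 0.37 on normal arrays (median 0.05) and at -0.34 to 1.82 on tumors (median 0.31), a difference of 0.45 ± 0.23 (adjusted p = 0.229), or 0.29 without tumor replicate 2, the highest array (adjusted p = 0.372). The gene nr2f2 lay above the reference on all 20 arrays, from 0.34 to 2.75 on normal arrays (median 1.53) and from 0.31 to 2.29 on tumors (median 1.16), with a difference of -0.48 ± 0.29 (adjusted p = 0.298). The remaining 3 differed by -0.36 ± 0.17 for nr2f1a, 0.26 ± 0.19 for nr2f1b and -0.15 ± 0.15 for nr2f6a. All 10 tumors lay below the normal median for nr2f1a, yet all were inside the normal range.

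**Figure D3:**
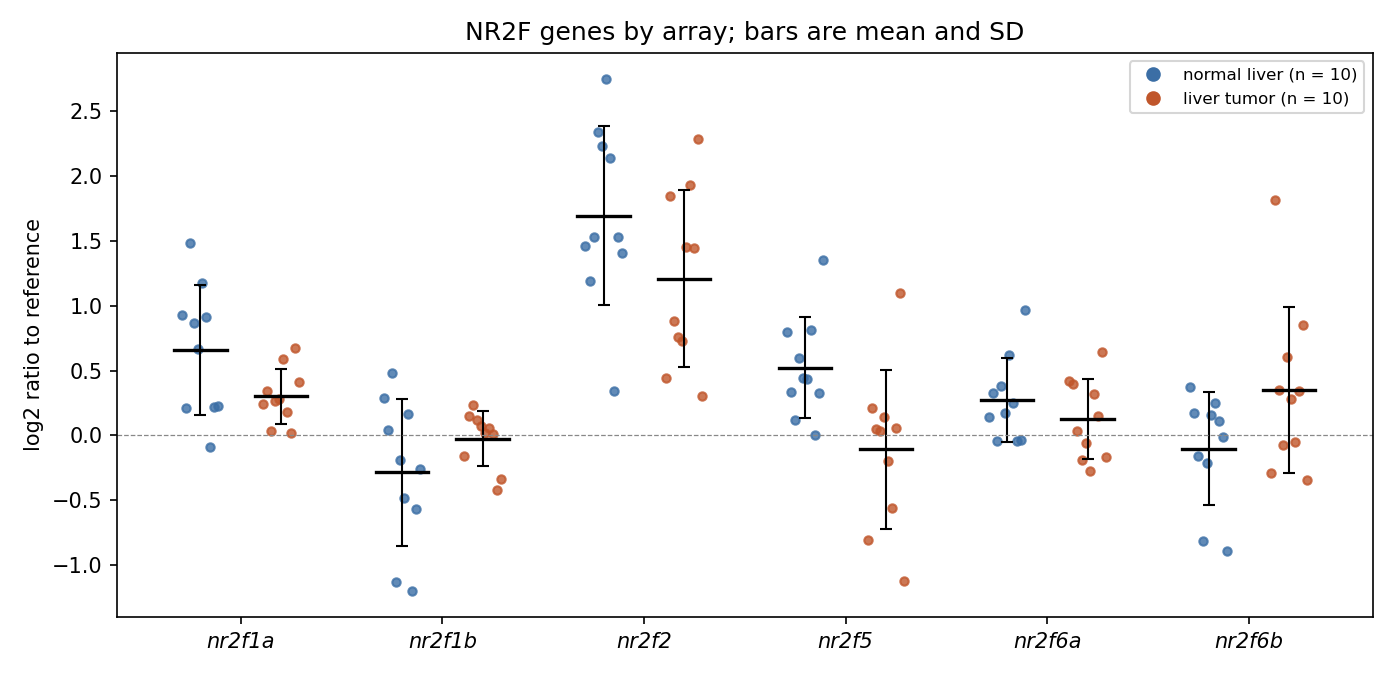
Log2 ratio to the reference (y axis) of the 6 NR2F genes on each array, with normal liver in blue and tumor in orange. Black lines are the mean and SD of 10 arrays. All 20 arrays lie above 0 for nr2f2, and the differences of nr2f5 (-0.63) and nr2f6b (0.45) have opposite signs.

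NR5A receptors bind DNA as single units, and in mammals nr5a2 (LRH-1) is known in bile acid synthesis and nr5a1 (SF-1) in steroid-making glands. The largest difference of all 40 genes belonged to nr5a5, but it did not pass. Its normal values ran from -2.02 to 1.92 (median 0.51) and its tumor values from -2.89 to 0.73 (median -0.42), a difference of -1.16 ± 0.47 (95% interval -2.14 to -0.17, adjusted p = 0.122, limma). The lowest values were those of tumor replicates 1 and 10 and normal replicate 9, and the difference depended on them. It was -1.43 and passed without normal replicate 9 (adjusted p = 0.0363), and was -0.92, -0.93 and -0.63 without tumor replicate 1, tumor replicate 10 and both (adjusted p = 0.207, 0.199 and 0.325). The genes nr5a2 and nr5a1a differed by 0.05 ± 0.29 and -0.01 ± 0.23.

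Among steroid and related receptors no difference exceeded 0.15 in size. The glucocorticoid receptor gene nr3c1 differed by 0.04 ± 0.28, but its 3 probes gave -0.36, -0.24 and 0.71, and the last had SDs of 1.77 on normal and 1.48 on tumor arrays. The oestrogen receptor beta gene esr2b had a mean of -0.78 in both groups, and esr2a differed by -0.12 ± 0.15. The oestrogen-related receptor gene esrra, a partner of PGC-1 coactivators in energy metabolism, differed by -0.15 ± 0.22. NR4A receptors are immediate early genes with no known classical ligand. The gene nr4a2a came closest to the threshold after pparab, at -0.56 ± 0.18 (95% interval -0.94 to -0.18, adjusted p = 0.0522, limma). It stood at -0.25 to 1.43 on normal arrays (median 0.06) and at -0.93 to 0.16 on tumors (median -0.42), with 6 tumors below every normal array. Normal replicate 1 was the highest for both nr4a2a and nr4a2b, at 1.43 and 1.32. Without that array the differences were -0.42 (adjusted p = 0.0531, limma) and -0.07. The gene nr4a2a passed under 6 of 30 alternative settings and missed the threshold under the rest, with the dim share as a covariate among them (adjusted p = 0.418, limma). With all arrays nr4a2b and nr4a1 differed by -0.21 ± 0.16 and -0.10 ± 0.15. The other orphan receptors nr2c1, nr2e3, nr2e1 and nr6a1a differed by -0.34, -0.33, -0.14 and -0.02.

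A further question was whether closely related receptors differ in their change, since a gene that passes and a gene that misses a threshold need not differ from each other. In each of 28 pairs of receptors of the same subgroup, the difference between the 2 genes within each array was compared between tumors and normal livers with a two-sided permutation test, adjusted over the 28 pairs. Pairs that share a gene are not independent. At an adjusted p under 0.05 there were 9 pairs, and 13 at an unadjusted p under 0.05. No share over pairs of other features was computed, so these counts cannot be read as particular to related receptors. The pair of pparaa and pparab was not among the pairs that passed. Relative to pparab, pparaa changed by 0.54 ± 0.30 (SE, permutation p = 0.0851, adjusted p = 0.159).

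For nr2f5 and nr2f6b the within-array difference, nr2f5 minus nr2f6b, ran from -0.11 to 2.24 on normal arrays (median 0.38) and from -1.60 to 0.25 on tumors (median -0.47). The shift was -1.08 ± 0.27, and all 10 tumors lay below the normal mean (permutation adjusted p = 0.00336). The probes of nr2f5 gave unlike differences, -1.03 and -0.23, and the pair was tested on their average only. For the retinoic acid receptors, raraa minus rarab ran from -1.66 to 0.38 on normal arrays (median -0.70) and from -0.35 to 0.25 on tumors (median 0.02). The shift was 0.82 ± 0.22, with all 10 tumors above the normal mean (permutation adjusted p = 0.0175). The shift of nr4a2a relative to nr4a2b was -0.35 ± 0.10, with 9 of 10 tumors below the normal mean (permutation adjusted p = 0.0267). These 3 pairs passed without each array in turn and without tumor replicates 1 and 10. The pairs were rerun only with arrays left out, not with the dim share as a covariate, array weights or scaled arrays.

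The other 6 pairs depended on single arrays. The gene nr5a2 shifted by 1.21 ± 0.41 relative to nr5a5 (permutation adjusted p = 0.0341), and missed the threshold without normal replicate 3 (adjusted p = 0.0513) and without tumor replicates 1 and 10 together (adjusted p = 0.0817). The pairs nr2f1b with nr2f5 (shift 0.89), nr2f1a with nr2f1b (-0.62), nr2f1a with nr2f6b (-0.81), nr5a1a with nr5a5 (1.14) and nr2f2 with nr2f6b (-0.93) missed it without any one of 4, 5, 8, 10 and 13 arrays, at permutation adjusted p up to 0.0747. The arrays concerned include normal replicates 4 and 6 for all 5 pairs and tumor replicate 3 for all 5. Without tumor replicates 1 and 10 together, nr2f1b with nr2f5, nr5a1a with nr5a5 and nr2f2 with nr2f6b missed it (permutation adjusted p = 0.0817, 0.105 and 0.0845). The pairs nr2f1a with nr2f1b and nr2f1a with nr2f6b passed there (0.0364 and 0.0312). Without normal replicate 8 and tumor replicate 10, nr2f1b with nr2f5 missed it (0.0615). The delta PPAR pair fell just outside, with pparda shifted by 0.58 ± 0.22 relative to ppardb (permutation adjusted p = 0.0501).

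**Figure D4:**
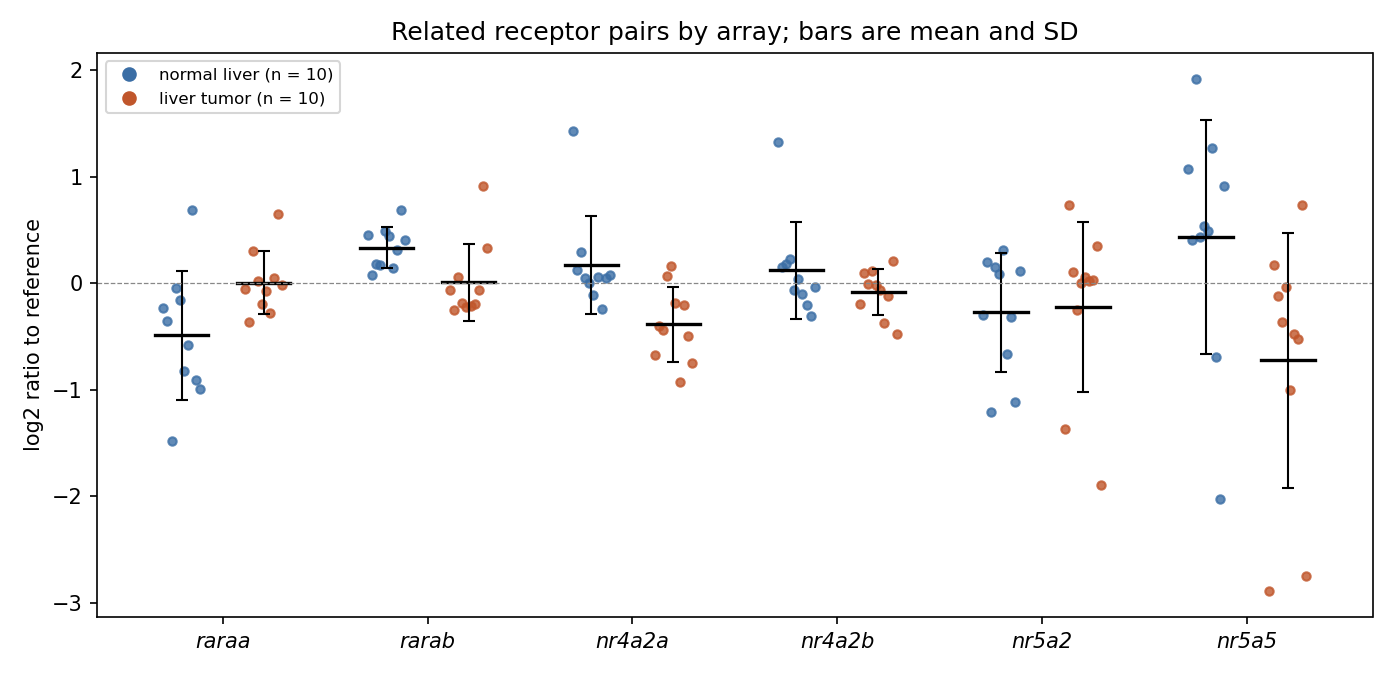
Log2 ratio to the reference (y axis) of 3 pairs of related receptor genes on each array, with normal liver in blue and tumor in orange, and black lines for the mean and SD of 10 arrays. The differences of raraa and rarab have opposite signs (0.49 and -0.32), normal replicate 1 stands highest for nr4a2a and nr4a2b, and 3 arrays lie below -2 for nr5a5.

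Of the 40 genes 13 were measured by several probes and 27 by 1 probe. Between the probes of a gene the difference varied by a median of 0.23, and in 6 of the 13 genes the probes had opposite signs. The widest gaps were those of nr3c1 (1.07), nr2f5 (0.80) and ppardb (0.65). The probes of nr2f5 gave -1.03 (adjusted p = 0.0203 in a limma fit over probes) and -0.23, so its average rests mainly on 1 of them. When probes were tested one by one, 4 of the 58 passed (6.9%, against 12.2% of all probes). They were the only probe of pparab, the only probe of nr4a2a, and 1 of the 2 probes each of nr2f5 and thrb. Of the 58 probes 40 showed no value at a ratio of small whole numbers on any array, and the largest number of such arrays was 3 of 20, for a probe of thrb.

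**Figure D5:**
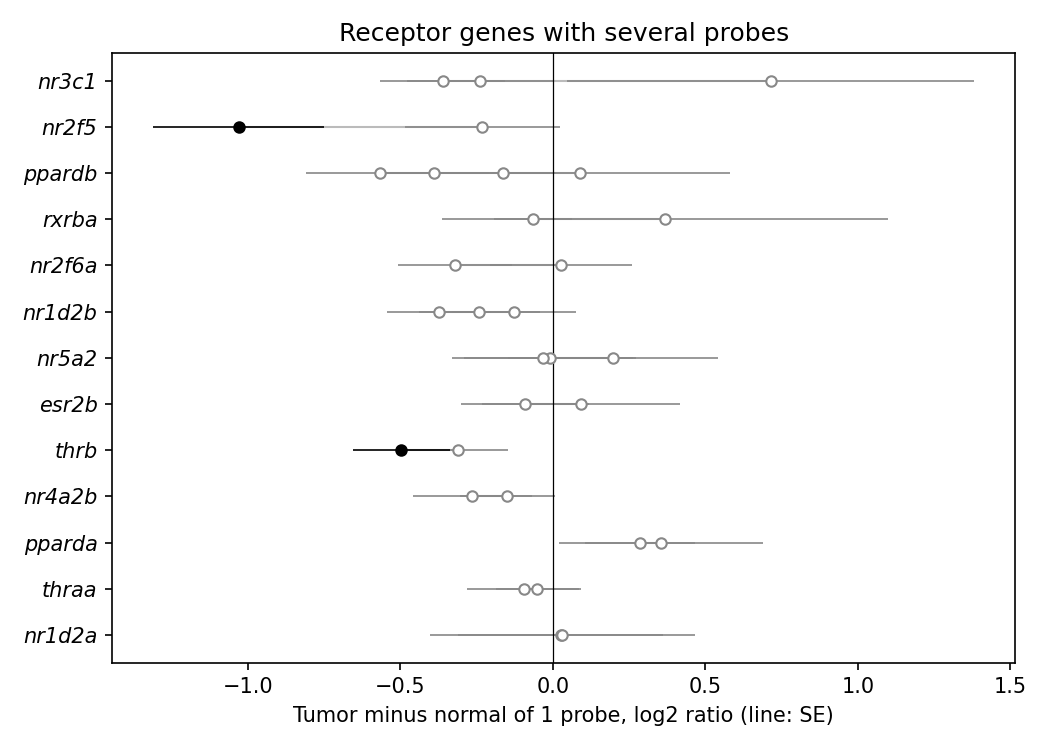
Difference between tumor and normal arrays (log2 ratio, x axis) of each probe for the 13 receptor genes with several probes, with lines for the SE (n = 10 arrays per group). Filled points passed the adjusted threshold in a fit over all probes, 1 each for nr2f5 and thrb. Probes lie close together for nr1d2a and thraa and 1.07 apart for nr3c1.

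The normal livers were then compared with the reference, which is normal liver RNA too. Of the 40 genes 4 were higher and 6 lower than the reference, 10 in all, and their share of 25% equals the 25% of all features (11.4% higher, 13.6% lower). Liver was always in the Cy5 channel, so gene-dependent dye effects and true differences cannot be told apart here. The gene nr2f2 was furthest from the reference, 3.23-fold higher at 1.69 ± 0.20 (SE, adjusted p = 8.01e-06 with limma), and above 0 on 10 of 10 normal arrays. The other higher genes were nr2f1a (0.66 ± 0.12), nr2f5 (0.52 ± 0.16) and rarab (0.33 ± 0.10). The gene nr1d2a was lower by a factor of 2.25, at -1.17 ± 0.26, and pparda by a factor of 2.09, at -1.06 ± 0.17 with 0 of 10 normal arrays above 0. The remaining lower genes were esr2b (-0.78 ± 0.18), rorab (-0.58 ± 0.11), raraa (-0.49 ± 0.15) and thraa (-0.38 ± 0.10).

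The spread of the receptor genes among livers of the same group was set beside that of all features. The median SD of the log2 ratio was 0.48 among normal and 0.40 among tumor arrays, against 0.44 and 0.38 over all features. The SD was larger among normal livers for 20 of the 40 genes and for 60.4% of all features. The widest spreads among normal arrays were those of nr5a5 (SD 1.10), nr2e3 (0.97), vdra (0.94) and rxrba (0.93). Among tumors they were nr5a5 (1.20), vdra (1.02), nr1d2a (0.99) and rxrba (0.86). The wide spread of rxrba was that of 1 of its 2 probes, with an SD of 1.96 among normal arrays. The other rxrba probe had an SD of 0.26 among normal arrays and 0.25 among tumors. The steadiest were esr2a among normal arrays (0.13) and nr4a1 among tumors (0.21).

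Genes that work with the receptors were described from lists of textbook partners and targets. Of 16 measured coactivator genes 1 passed, the histone demethylase kdm3b (0.51 ± 0.14), followed by pprc1 at 0.59 ± 0.19 (adjusted p = 0.0511, limma), and the list's median difference was 0.12. Of 9 corepressor genes the histone deacetylase hdac1 was higher (1.08 ± 0.22) and ctbp2a lower (-0.51 ± 0.14), with a median of -0.04. Genes that carry or make receptor ligands included large decreases. Of 13 retinoid handling genes 2 were lower, the carriers rbp4 (-4.03 ± 0.36) and rbp2a (-3.25 ± 0.40), and 0 higher. Of 3 thyroid hormone handling genes 1 passed, the deiodinase dio2, which activates the hormone, at -2.38 ± 0.39, followed by crym at -0.31 ± 0.13 (adjusted p = 0.134).

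Among textbook target genes, those of PPARs in lipid oxidation had 3 lower and 1 higher of 10 measured, with a median difference of -0.30. Catalase, cat, differed by -2.97 ± 0.39 and the fatty acid carrier fabp3 by -1.91 ± 0.33. The third lower gene was hsd17b4 (-1.20 ± 0.23), and the higher gene was ucp2 (1.42 ± 0.39). The others, cpt1ab and acadvl among them, did not pass and ran from -0.71 for ech1 to 0.44 for fabp7a (adjusted p = 0.0734 to 0.832, limma). Of 8 genes that HNF4 is known to drive, for plasma proteins and for the enzymes tat and pck1, 4 were lower and 0 higher. The 8 differences ran from -3.63 to -0.63, beside -0.09 for hnf4a itself. The apolipoprotein apoa1a (-3.63 ± 0.44) and antithrombin, serpinc1 (-2.09 ± 0.39), led them. Of these 8 genes 3 (apoa1a, apoba and tfa) are also among the 9 hepatocyte markers above, as is rbp4 of the retinoid list, so these counts overlap. The gene rbp2a of the retinoid list is likewise the 1 intestine marker that was lower. Of 6 genes listed as xenobiotic targets of PXR and CAR 3 were lower, among them cyb5a (-1.24 ± 0.25) and the cytochrome P450 gene cyp2k19 (-1.18 ± 0.31). Of 7 genes listed as sterol and bile acid targets of LXR and FXR 1 was lower, the sterol hydroxylase gene cyp27a1.4 (-1.22 ± 0.29). It was followed by apoeb at -0.91 ± 0.43 (adjusted p = 0.182, limma). The 40 receptor genes hold no PXR, CAR or FXR gene. Whether the listed zebrafish genes respond to these receptors was not tested.

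Of 15 clock genes 1 was higher, cry2 (0.48 ± 0.13), followed by tefa at -0.94 ± 0.35 (adjusted p = 0.0905, limma), and the median was -0.08. Of 14 genes of steroid synthesis and response the HSP90 cochaperone ptges3a was higher (0.72 ± 0.16) and the cholesterol transporter star lower (-0.76 ± 0.20), with a median of -0.06. The medians of these lists stand beside -0.01 for all features, and their calls beside the 10.8% of all features that passed. With dim spots as a covariate 2 retinoid handling genes and 1 HNF4 target passed and 0 genes of the other 8 lists.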

How the data were processed

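Liver samples of 10 normal and 10 tumor zebrafish arrays were used. The deposited table holds 1 log2 ratio per probe and array, with 0 missing values. The base was read from the values, and how the authors corrected, filtered and normalized the spots is not given in the sources used here. Per the labels, Cy5 marked the sample and Cy3 the reference. Of 16512 probes 6088 had 1 platform symbol, 75 had several and 10349 had none. Probes of 1 symbol were averaged within each array, giving 15780 features. All 40 receptor symbols were found by their Entrez number in a RefSeq gene table (used for names only), unchanged.

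Groups were compared in limma 3.58.1 (R 4.3.3) by lmFit followed by eBayes, adjusted by Benjamini-Hochberg over all features, with a threshold of 0.05. The mean of the normal arrays was tested against 0 in the same fit. Related receptors were compared with 100000 permutations of the arrays (Python 3.11.15, numpy 2.4.6). Once 1 constant per array was removed, a spot was called dim where its value equalled log2 of a ratio of integers no larger than 10 (tolerance 0.00011). With a deliberately wrong constant, 0.321% to 0.545% of the values of an array met this rule. On simulated data for tumor against normal over 15780 features, 71% of changes of 1 log2 unit and 95% of changes of 2 were recovered, with 6 false calls. The simulation drew independent normal noise for each feature and changed 100 features by each size. Its rates therefore need not hold for these arrays. The number of arrays limits the precision. Full values were given for every receptor gene that passed and for the 8 with the largest differences. For each list with a call, other than the cell type markers, the 2 genes of smallest p were given. Of the marker lists this was done for the bile duct only. Further values were chosen after they were seen. The receptors and the 18 gene lists were chosen with earlier results of these data known. Alternatives changed the test, the array weights, centring and scaling, the probes, the covariate, the block and the arrays used.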

Additional observations from a re-analysis of the deposited data

Results flagged for a closer look

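In 10 of 80 groups of 10 arrays (40 genes, 2 groups each) the highest or lowest array stood apart from its neighbour. The gap was a larger part of the group's range than Dixon's critical value allows, which for normal values happens in about 1 group in 20. No share over all features was computed with this rule, so the count cannot be read as particular to receptors. The 10 cases lie on 5 arrays, and genes on the same array are not independent. Tumor replicate 10 was lowest for hnf4a (-2.38, next -0.32) and nr5a1a (-1.52, next -0.46) and highest for rxrba (1.74, next 0.07). Without it the differences of these genes were 0.15, 0.13 and -0.06, against -0.09, -0.01 and 0.15 with it. Normal replicate 1 was highest for nr2e3 (3.02, next 1.32), nr4a2a (1.43, next 0.29) and nr4a2b (1.32, next 0.22), and without it the difference of nr2e3 was -0.06 in place of -0.33. Tumor replicate 9 was highest for nr1d2b (0.58, next -0.06) and rarab (0.91, next 0.33). Tumor replicate 1 was lowest for pparaa (-1.47, next -0.69), and without it the difference was -0.26. Normal replicate 3 was highest for nr2e1 (0.52, next 0.14), and without it the difference was -0.09 in place of -0.14. Without tumor replicate 9 the differences of nr1d2b and rarab were -0.33 and -0.42, against -0.25 and -0.32 with it.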

How the results depend on the processing

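Of the 40 receptor genes 1 passed with all arrays. Other settings gave 8 with array weights (7 lower, 1 higher, where 21.5% of all features passed), 2 with centred arrays (11.5%), 4 with centred and scaled arrays (17.3%), 0 with the dim share as a covariate (0.342%), 2 without normal replicate 8 and tumor replicate 10 together (11.8%), and 4 when each gene was read from its most variable probe (11.4%). The most variable probe was that of largest SD over all 20 arrays, a spread that includes the difference between the groups. The choice therefore favours probes with larger differences, such as -1.03 for nr2f5 and -0.50 for thrb. Leaving out 1 array gave 1 to 4 (8.61% to 13.6%). The gene pparab passed under 29 of 30 alternatives, the exception being the dim share (-0.64, adjusted p = 0.458, limma). These are not independent checks, since 20 of the 30 left out 1 array each. The reading by probe repeated the values of the main fit, as pparab has 1 probe. The difference of nr2f2 turned to 0.16 in the fit with the dim share (adjusted p = 0.909). In the 7 other genes of the largest differences no alternative turned the sign. The cause of these moves was not tested. Negative differences numbered 24 to 34 of 40, a count added after the data were seen. Of the 28 pairs 9 passed, and 4 to 12 without 1 array (also added after the data were seen), with 4 without normal replicate 3, 4 or 6 or tumor replicate 3, and 5 without normal replicate 10. Against the reference, 9 to 13 genes passed, where 3284 to 4837 of all 15780 features did. The rank-sum test and the fits with the dim share or the replicate block were not counted for this comparison. Over all features the fit with the dim share gave 1045 calls against the reference, and 3943 without it. Without normal replicate 8 and tumor replicate 10 the lists of coactivators, retinoid handling and sterol targets had 2, 4 and 2 calls, against 1, 2 and 1 with all arrays, the ovary markers 7 against 3 and the erythrocyte markers 0 against 1. Without tumor replicates 1 and 10 the pancreas markers had 2 against 0 and the erythrocyte markers 0 against 1. With the replicate number as a block (replicate block) 1 receptor gene passed, again pparab, where 7.94% of all features passed. The labels do not say whether equal numbers in the titles pair the arrays. Of 10 same-numbered pairs 2 had deviations that correlated above 0.1 (-0.152 to 0.122), and 1 tumor correlated best with its own number. Weak correlations cannot show that the arrays are unpaired. Without brightness in the table, dim probes could not be left out by signal.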
